A study of Homo sapiens with 5 samples.

Results

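The AP-1 family and the early growth response gene EGR1 were followed in NCI-H209 cells, an established line of human small cell lung cancer (SCLC), with and without human brain microvascular endothelial cells (HBMECs). The 10 genes, FOS, FOSB, FOSL1, FOSL2, JUN, JUNB, JUND, ATF3, BATF3 and EGR1, were taken by name and not by a threshold on measured values. Earlier results of these data were known when they were chosen. All 10 were found among the 64837 gene entries of the count files. RNA-Seq was run on total RNA depleted of ribosomal RNA from 3 control cultures, labelled untreated, and from 2 cultures conditioned by HBMECs for 24 h. In the co-cultured wells the HBMECs sat in a Transwell insert above the tumor cells, so the cells shared medium across a porous membrane, and only the tumor cells were collected. All 5 libraries came from the same tumor line grown in RPMI medium with fetal bovine serum. The sources do not say whether control wells held an empty insert or the medium of the HBMECs, which also contained Nu-serum, or whether the replicates were separate cultures, so p-values measure the spread between these libraries, which may be technical.

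AP-1 is a dimer of proteins that pair through a leucine zipper and bind DNA through the basic region beside it, an arrangement called bZIP. JUN proteins pair with themselves or with FOS proteins, FOS proteins need a JUN partner, and ATF3 and BATF3 pair with JUN proteins among others. FOS, FOSB, JUN, JUNB, ATF3 and EGR1 are immediate early genes, which are transcribed soon after a growth factor, stress or calcium signal without new protein synthesis and whose mRNAs are short-lived. EGR1 is a zinc finger factor rather than an AP-1 protein, and it is induced through the serum response factor SRF and its partners of the ternary complex family.

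The promoters are shown to describe which of the elements named below stand near the starts of these genes. Whether any of them bears on the levels of the members was not tested. RefSeq windows on GRCh38.p14, each from 250 bases before to 50 bases after a transcript start, were at hand for 8 of the 10 members, and ATF3 had a window at each of its 2 starts. FOSL1 and BATF3 had none. Where part of a window lay inside the gene as GENCODE 29 draws it, that part is left out, and for FOSL2 and JUN, whose windows lay wholly inside, only a 30-base site is given. Capitals mark matches, on either strand, to the cyclic AMP response element CRE (TGACGTCA), a CRE variant (TGACATCA), the AP-1 site TRE (TGANTCA), the CRE core (TGACG, which lies inside the CRE), the TATA box (TATAAA) or the SRF-binding CArG box, and the FOSL2 and JUN lines mark only the TRE and the CRE variant. Each sequence is written 5′ to 3′ on the strand of its gene.
FOS chr14:75278578-75278773 (+ strand): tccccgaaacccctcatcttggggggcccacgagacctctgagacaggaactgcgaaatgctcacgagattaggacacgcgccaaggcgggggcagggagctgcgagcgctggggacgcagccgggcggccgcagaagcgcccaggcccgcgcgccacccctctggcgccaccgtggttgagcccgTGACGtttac
FOSB chr19:45467746-45467994 (+ strand): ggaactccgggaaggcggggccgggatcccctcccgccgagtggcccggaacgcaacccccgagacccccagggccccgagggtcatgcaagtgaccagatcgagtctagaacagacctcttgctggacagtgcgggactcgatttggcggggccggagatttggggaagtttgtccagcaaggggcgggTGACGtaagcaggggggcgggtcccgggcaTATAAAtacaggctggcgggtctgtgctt
FOSL2 chr2:28392851-28392880 (+ strand): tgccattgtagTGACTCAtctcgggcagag
JUN chr1:58784096-58784125 (− strand): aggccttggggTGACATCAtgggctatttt
JUNB chr19:12791236-12791485 (+ strand): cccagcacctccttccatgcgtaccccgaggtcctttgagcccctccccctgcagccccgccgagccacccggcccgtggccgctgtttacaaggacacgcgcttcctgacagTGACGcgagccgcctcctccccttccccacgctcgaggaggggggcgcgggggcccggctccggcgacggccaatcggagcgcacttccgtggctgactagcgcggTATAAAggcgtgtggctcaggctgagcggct
JUND chr19:18281623-18281872 (− strand): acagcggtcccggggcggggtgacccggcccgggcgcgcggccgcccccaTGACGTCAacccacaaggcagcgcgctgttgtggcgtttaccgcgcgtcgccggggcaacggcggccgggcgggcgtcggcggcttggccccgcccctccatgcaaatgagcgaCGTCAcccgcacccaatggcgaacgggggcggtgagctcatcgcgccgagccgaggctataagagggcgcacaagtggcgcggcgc
ATF3 chr1:212565157-212565333 (+ strand): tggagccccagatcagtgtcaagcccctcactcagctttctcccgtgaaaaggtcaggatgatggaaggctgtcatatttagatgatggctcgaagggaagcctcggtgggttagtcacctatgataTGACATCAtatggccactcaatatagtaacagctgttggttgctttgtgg
EGR1 chr5:138465229-138465478 (+ strand): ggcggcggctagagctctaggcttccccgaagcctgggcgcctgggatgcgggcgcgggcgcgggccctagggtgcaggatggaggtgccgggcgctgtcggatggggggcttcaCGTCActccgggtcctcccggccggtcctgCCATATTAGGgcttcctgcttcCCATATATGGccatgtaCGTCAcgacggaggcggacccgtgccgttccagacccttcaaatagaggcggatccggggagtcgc

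Within these windows EGR1 was the member with CArG boxes. It had 2, at −105 to −96 and at −83 to −74 relative to the start (−1 is the base before it). Sequence more than 250 bases before a start was not searched, so a member without a match may carry the element farther upstream. At least 1 CArG box was found in 1.29% of the 35116 RefSeq windows. JUND held the full CRE, at −200 to −193, and 1.85% of all windows did. The CRE variant was found at −67 to −60 in JUN and at −123 to −116 at the upstream start of ATF3, and in 2.61% of all windows. FOS and FOSB shared a layout, with a CRE core at −64 and −60 and a TATA box at −33 and −30, counted from the first base of each match. JUNB also had a TATA box, at −31, and FOSL2 had a TRE 5 bases into its transcript. CRE cores were found in 7 of the 8 members with a window and in 24.6% of all windows. TATA boxes were found in 4 of 8 and 11.5%, and the TRE in 1 of 8 and 7.71%. The TRE search allowed any base at the N of TGANTCA, which is looser than the AP-1 consensus, with C or G there. These matches describe letters in the windows and were not tested as binding sites.

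**Figure D1:**
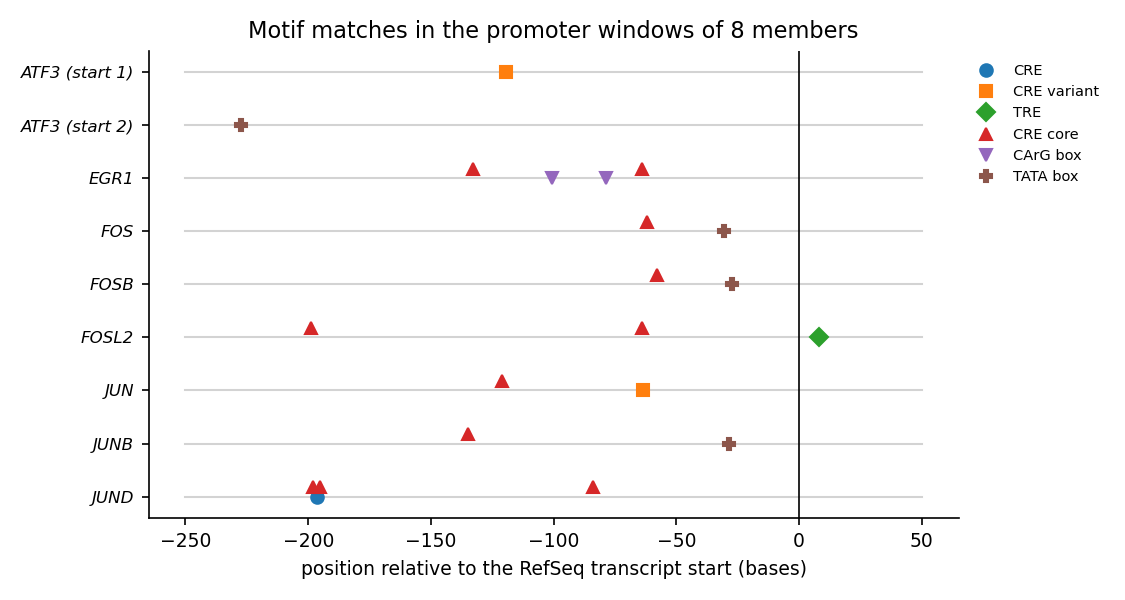
Positions of motif matches in the RefSeq promoter windows of 8 members (horizontal lines; x axis, bases from the transcript start; symbols at the middle of each match). EGR1 carries 2 CArG boxes between −105 and −74, and FOS, FOSB and JUNB have a TATA box near −30.

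Co-cultured NCI-H209 cells had higher mRNA levels of the AP-1 genes than control cells, with the largest fitted rise among the tested members in FOSL2 and the smallest in JUN. The filter on low counts kept 9 of the 10 members, and each of the 9 was upregulated at an adjusted p under 0.05 (edgeR quasi-likelihood test), where 18.4% of the 20360 genes tested were called higher and 33.4% were called in either direction. The values of the groups did not overlap for 8 of the 9, against 29.4% of all genes tested with every co-cultured value above every control value. The study set DEGs apart by fold change and p. With its thresholds read here as a log2 change beyond 1 in size and an unadjusted p below 0.05, 7 of the 9 were upregulated DEGs, against 5.44% of genes upregulated and 5.01% downregulated, and JUN and JUND were the exceptions. The median log2 fold change was 1.17 over the 9 members tested and −0.03 over all genes tested. Levels are given as CPM, the count scaled to a fixed total per normalized library, in the order control 1, 2 and 3, then co-cultured 1 and 2. In these bulk samples a change in the number of cells of a type and a change in mRNA per cell cannot be told apart.

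**Figure D2:**
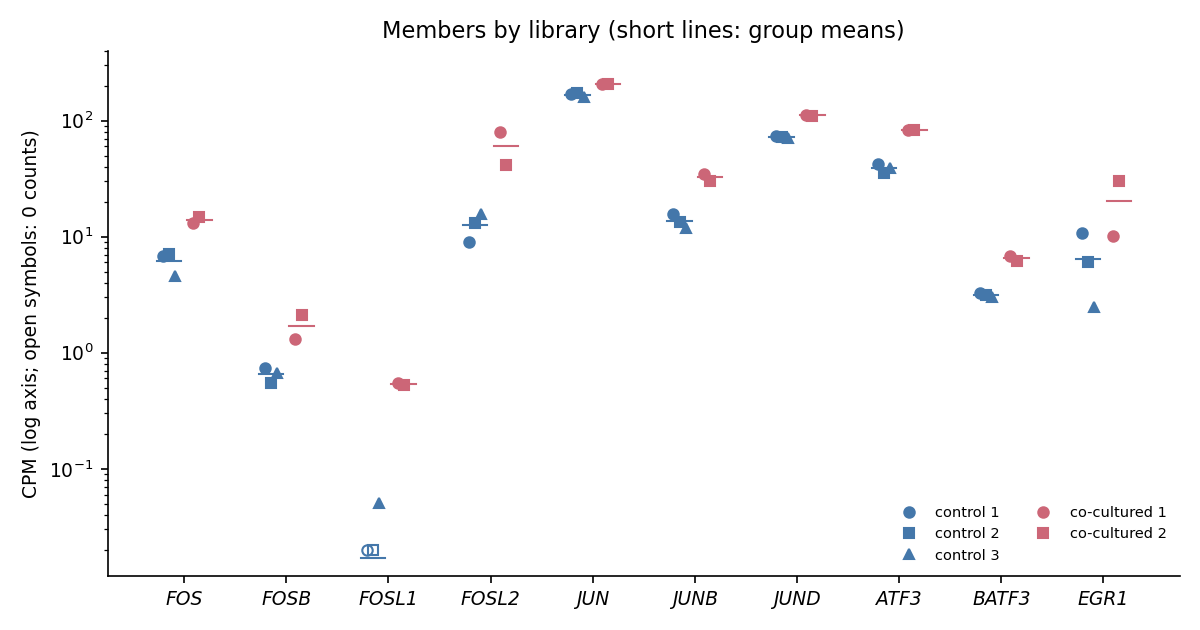
CPM of the 10 members in each library (log y axis; blue, 3 control libraries; red, 2 co-cultured libraries; short lines, group means; open symbols, 0 counts drawn near the bottom). The groups are apart for every member except EGR1, where the co-cultured library at 10.2 CPM lies below the highest control library at 10.8 CPM.

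Of the library-wide measures, unmapped reads moved with the groups, making up 8.13% to 8.48% of the reads of control libraries, and 15.9% and 16.8% with co-culture. Reads that overlapped no annotated exon on the counted strand, which can include intronic reads, made up 47.3% to 51.2% and 40.1% to 40.8%. Both shifts cannot be told apart from the co-culture. Of 10 neuroendocrine SCLC markers 9 were tested, 3 were higher and 1 lower, and their summed level was 2165 to 2645 CPM in control and 2684 to 2804 CPM in co-cultured libraries. CHGA, the remaining marker, held at most 1 count in any library. The files also list entries on patch or haplotype sequences, and reads that map to several places are not counted on any gene, so a count near 0 does not by itself show a lack of mRNA, and whether this set the count of CHGA was not tested. Endothelial markers summed to 9.57 to 20.9 CPM in control libraries and to 13.1 CPM in both co-cultured libraries. Of these 15 markers 9 were tested, of which ESAM was higher, 8 were not called and none was called lower. FLT1 met the criterion for DEGs downward (log2 fold change −3.97, unadjusted p = 0.025, adjusted p = 0.068). By library, FLT1 read 1.60, 1.55, 0, 0.0547 and 0.0661 CPM. TEK read 1.65, 1.33, 0, 0.328 and 0.198 CPM, and KDR 1.97, 1.49, 0.102, 0.656 and 0.264 CPM. Each was lowest in control 3. Fold changes of VWF and ERG were also negative, and those of PECAM1, CDH5 and EGFL7 were positive. TIE1, SOX17, EMCN, ROBO4 and MMRN2 were at 3 counts or fewer in every library.

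FOS, the founding member of the family and a classic immediate early gene, lies on chromosome 14 from 75278774 to 75282230 (GRCh38, + strand). It was at 6.81, 7.13 and 4.61 CPM in control and at 13.0 and 14.7 CPM in co-cultured libraries. Both co-cultured values lay above all control values, and control 3 was the lowest. FOS rose 2.24-fold, with a log2 fold change of 1.17 ± 0.19 (SE) and an adjusted p of 0.00193, and it kept its call under each of 12 alternative settings.

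FOSB, a close relative of FOS that is known for its stable splice form in neurons, lies on chromosome 19 from 45467995 to 45475179 (+ strand) and was scarce. Its libraries held 14, 10 and 13 counts in control and 24 and 32 counts in co-culture, or 0.744, 0.553 and 0.666 against 1.31 and 2.11 CPM. The groups did not overlap, and co-cultured 2 was the higher of the pair. The log2 fold change was 1.36 ± 0.36 (adjusted p = 0.0176). The call was lost without co-cultured replicate 2 (adjusted p = 0.19) and without control replicate 2 (adjusted p = 0.052).

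FOSL1, which encodes FRA-1, a FOS protein without the strong activation domain of FOS, lies on chromosome 11 from 65892049 to 65900573 (− strand). It had 0, 0 and 1 counts in control and 10 and 8 counts in co-cultured libraries, too few for the filter. From these totals of 1 and 18 counts, the ratio of levels was 30.4, with an exact 95% interval for counting error of 4.80 to 1266. With the filter lowered to 1 count in any library it was called, at a log2 fold change of 4.47 (adjusted p = 0.000278), a value that depends on the prior count. Reads on the opposite strand of FOSL1 numbered 5, 10 and 9 in control and 7 and 4 in co-culture, and made up 64.8% of its reads. Without regard to strand its counts were therefore 5, 10 and 10 against 17 and 12, and it was not called (log2 fold change 1.01, adjusted p = 0.11).

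FOSL2, which encodes FRA-2, the relative of FOSL1, lies on chromosome 2 from 28392448 to 28417312 (+ strand). It rose from 8.99, 13.0 and 15.7 CPM in control to 79.3 and 41.7 CPM. The lowest co-cultured value was above the highest control value, although the co-cultured libraries themselves differed 1.90-fold. The fitted rise was 4.83-fold (log2 fold change 2.27, 95% interval 1.66 to 2.88, adjusted p = 0.000385). It was called in all 12 alternatives, between 1.74 without co-cultured replicate 1 and 2.66 without co-cultured replicate 2.

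JUN, the partner that FOS proteins use most in the textbook dimer, lies in a single exon on chromosome 1 from 58780788 to 58784327 (− strand). It was at 168, 172 and 161 CPM in control and 208 and 205 CPM in co-culture. These groups were apart by more than their spread, with SDs of 5.75 and 2.22 CPM, but the rise was 1.24-fold (log2 fold change 0.30 ± 0.07, adjusted p = 0.0126). The call of JUN was lost without control replicate 3 (adjusted p = 0.054), without co-cultured replicate 1 (adjusted p = 0.11) and without co-cultured replicate 2 (adjusted p = 0.098).

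JUNB, a JUN protein with a weaker activation domain that can restrain JUN, lies on chromosome 19 from 12791496 to 12793315 (+ strand). Its level went from 15.7, 13.3 and 12.0 CPM to 34.4 and 30.4 CPM, with no overlap. The change was 2.38-fold (log2 fold change 1.25 ± 0.13, adjusted p = 0.000221). A stretch of 259 bp of its exon is shared with HOOK2 on the opposite strand, and counts without regard to strand, which drop reads in the shared stretch, gave 231, 199 and 187 against 508 and 373 counts.

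JUND, the JUN gene that many cells express without stimulation, lies on chromosome 19 from 18279760 to 18281622 (− strand). It was at 74.1, 71.9 and 71.1 CPM in control and 112.1 and 109.9 CPM in co-culture, with the replicates of each group close together. It rose 1.53-fold (log2 fold change 0.62 ± 0.07, adjusted p = 0.000347). JUNB and JUND were called in all 12 alternatives, from 1.16 to 1.37 and from 0.54 to 0.66 on the log2 scale.

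ATF3, a stress-induced member that represses many promoters as a homodimer, had the smallest adjusted p of the members. It lies on chromosome 1 from 212565334 to 212620777 (+ strand). Control libraries had 42.1, 35.6 and 39.1 CPM and co-cultured libraries 83.8 and 82.8 CPM, which did not overlap. The rise was 2.14-fold (log2 fold change 1.10 ± 0.09, adjusted p = 6.66e-05).

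BATF3, best known for its role in dendritic cells, lies 65640 bp beyond the end of ATF3 on the opposite strand (chromosome 1, 212686418 to 212699985), with 4 annotated genes wholly between. It was at 3.24, 3.15 and 3.02 CPM in control and 6.83 and 6.21 CPM in co-culture, again without overlap. Its rise was 2.08-fold (log2 fold change 1.06 ± 0.18, adjusted p = 0.00227). ATF3 and BATF3 kept their calls in all 12 alternatives.

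EGR1, on chromosome 5 from 138465490 to 138469315 (+ strand), was the tested member whose replicates lay farthest apart. It had 203, 109 and 48 counts in control and 187 and 458 counts in co-cultured libraries, or 10.8, 6.03 and 2.46 against 10.2 and 30.3 CPM. Co-cultured 2 was above every control library, while co-cultured 1 lay below control 1. Its log2 fold change of 1.65 had a 95% interval of 0.46 to 2.84 (adjusted p = 0.0393), and this call rested on co-cultured replicate 2: without it the log2 fold change was 0.67 (adjusted p = 0.48). It was also lost without control replicate 2 (adjusted p = 0.089), without control replicate 3 (adjusted p = 0.069) and with DESeq2 (adjusted p = 0.16). Opposite-strand reads were few, at 15, 7 and 3 against 3 and 1.

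**Figure D3:**
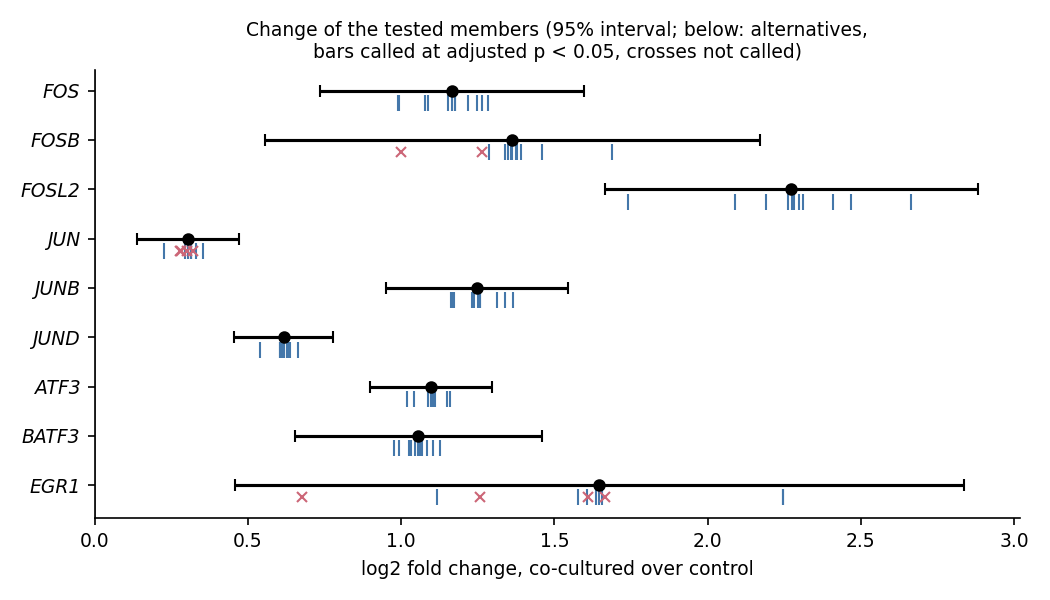
Log2 fold change of the 9 tested members, co-cultured over control (points, with 95% intervals as bars). Under each point stand the 12 alternatives, as ticks where the gene was called at an adjusted p under 0.05 and as crosses where it was not: crosses occur for FOSB, JUN and EGR1, and no value lies below 0.

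The spread between the co-cultured libraries differed from member to member. Among the 11521 genes tested with at least 100 counts in both co-cultured libraries, the median gene differed 1.06-fold between co-cultured 1 and 2. ATF3 differed 1.01-fold, JUN and JUND 1.02-fold, and FOS and JUNB 1.13-fold. EGR1 differed 2.96-fold, the widest gap among these genes. FOSL2 differed 1.90-fold, a gap matched or exceeded by 0.0781% of them, FOSL2 included. The direction was not shared: FOSL2 was higher in co-cultured 1, and EGR1 in co-cultured 2. In control libraries the highest EGR1 level was 4.39 times the lowest.

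Levels of different members were compared per length, as TPM, the count per exon length scaled to a fixed total per library, computed from the counts and the exon lengths of GENCODE 29. In control cells JUN (168 ± 16.8 TPM, SD, n = 3) and JUND (138 ± 9.34 TPM) stood far above ATF3 (34.1 ± 0.170 TPM) and JUNB (26.5 ± 2.90 TPM). EGR1, FOS, FOSL2 and BATF3 followed at 7.15, 6.79, 6.27 and 4.10 TPM, with each neighbor in this order overlapping the next. FOSB (0.415 TPM) and FOSL1 (0.0318 TPM) were lowest. In co-cultured cells JUND (200.4 ± 0.122 TPM, SD, n = 2) and JUN (196 ± 0.743 TPM) were about level, although their values did not overlap, and ATF3 (69.4 TPM) and JUNB (59.8 TPM) kept their order. FOSL2 came next at 28.4 TPM, and overlapped EGR1 (21.8 TPM), which overlapped FOS (14.4 TPM). BATF3 was at 8.08 TPM, and FOSB and FOSL1, at 1.04 and 0.958 TPM, overlapped.

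Summed over the 4 FOS genes, the level went from 11.5, 15.8 and 13.2 TPM in control to 52.0 and 37.5 TPM in co-culture, a ratio of 3.31. Summed over the 3 JUN genes, it went from 315.5, 363.7 and 317.5 TPM to 459 and 454 TPM, a ratio of 1.37. FOS family mRNA was 3.64%, 4.35% and 4.16% of JUN family mRNA in control and 11.3% and 8.26% in co-culture, so the JUN genes were in excess in every library. The make-up of the 9 AP-1 genes moved as well. JUN went from 43.7% ± 1.02 of their summed TPM (SD, n = 3) to 33.9% ± 0.937 (SD, n = 2), and the share of JUND was 35.9% and 34.6%. JUNB went from 6.91% to 10.3%, ATF3 from 8.91% to 12.0% and FOSL2 from 1.63% to 4.88%, each without overlap between groups. These shares are descriptions and were not tested, and an exact permutation test of 3 libraries against 2 cannot give a p below 0.1. Within the FOS genes, FOS made up 60.2%, 53.5% and 37.9% in control and 25.7% and 41.2% in co-culture, and FOSL2 36.0%, 44.1% and 58.2% against 70.9% and 52.8%, so both overlapped between groups.

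**Figure D4:**
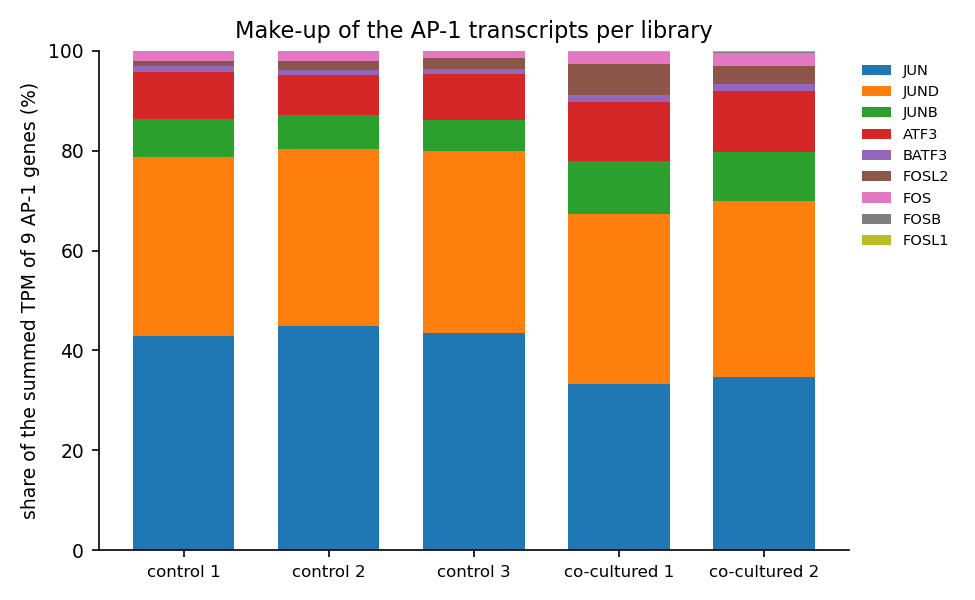
Share of each AP-1 gene in the summed TPM of the 9 AP-1 genes, per library (stacked bars, y axis in percent). JUN makes up 43.7% on average in control and 33.9% in co-cultured libraries. FOSL2, JUNB, ATF3, FOS, BATF3, FOSB and FOSL1 take larger shares in both co-cultured libraries than in any control library.

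Other genes of the pathway were followed in 4 lists. The first held 27 other bZIP genes that pair or compete with AP-1 proteins, of which 25 were tested, 16 were higher, 1 was lower and 8 were not called, with a median log2 fold change of 0.53. For comparison, 18.4% of all genes tested were higher and 15% lower. By smallest p, the leading genes were CEBPG, a dimer partner in stress responses, from 166 ± 6.30 to 378 ± 13.3 CPM (log2 fold change 1.19), DDIT3, which encodes the stress factor CHOP, from 21.7 ± 1.5 to 49.8 ± 0.238 CPM (1.20), BACH2, a repressor at AP-1-like sites, from 13.8 ± 2.31 to 43.2 ± 5.86 CPM (1.64), and JDP2, a JUN-binding repressor, from 12.3 ± 1.36 to 30.4 ± 1.61 CPM (1.31). ATF5, named after its values were seen as the gene that fell, went from 1060.4 ± 70.6 to 791 ± 8.39 CPM (adjusted p = 0.00641), a call that was lost without co-cultured replicate 1 (adjusted p = 0.073) or 2 (0.089). NFE2 was not tested, at 0 to 4 counts. Without either co-cultured library, fewer genes of this list were called, as were fewer of all genes tested.

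The second list held 69 other immediate early genes. Of the 60 tested, 38 were higher, 3 were lower and 19 were not called, and the median log2 fold change was 0.78. It was led by PPP1R15A, which encodes the phosphatase subunit GADD34, from 50.2 ± 3.75 to 142 ± 2.98 CPM (log2 fold change 1.5), TNFAIP3, an inhibitor of NF-κB signaling, from 36.0 ± 4.59 to 127 ± 8.76 CPM (1.82), KLF4 from 32.8 ± 1.69 to 81.7 ± 3.72 CPM (1.32) and KLF10 from 76.6 ± 3.67 to 173 ± 13.7 CPM (1.17), the last pair being Krüppel-like transcription factors. The falling genes, named after their values were seen, were ID2 (log2 fold change −0.96), BTG2 (−0.45) and CCNL1 (−0.26). BTG2 lost its call without co-cultured replicate 1 (adjusted p = 0.068), and CCNL1 in 6 of 12 alternatives, among them unstranded counts (0.066) and every removal of a library except control 1 (0.078 to 0.19). Of the EGR relatives, EGR2, EGR3 and EGR4 did not pass the filter and held 0 to 8 counts per library, and IER3, DUSP8 and AMIGO3 had 0 counts in every library, with the same limit on what a 0 shows as for CHGA.

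The third list held 44 upstream kinases and promoter-binding factors, of which 41 were tested. Of these, 15 (36.6%) were higher, 3 (7.3%) were lower and 23 were not called, with a median log2 fold change of 0.13. Over all genes tested, 18.4% were higher and 15% lower. MAP2K1, which encodes the ERK kinase MEK1, went from 48.4 ± 3.01 to 88.1 ± 6.59 CPM (log2 fold change 0.87), RPS6KA3, the ERK-activated kinase RSK2, from 88.6 ± 2.37 to 138 ± 0.912 CPM (0.64), and MEF2A, a factor that acts on the JUN promoter, from 104 ± 6.73 to 187 ± 9.07 CPM (0.85). SRF, whose CArG box stands in the EGR1 window, was at 34.0 ± 5.03 and 31.3 ± 0.840 CPM (log2 fold change −0.12, 95% interval −0.41 to 0.17), and its partner ELK1 at 35.7 ± 3.02 and 37.1 ± 1.40 CPM (0.06, −0.17 to 0.28). CREB1 and ATF2, which bind the CRE and belong to the first list, had intervals of −0.34 to 0.01 and −0.12 to 0.26. These 4 factors, chosen for their sites after their values were known, were not called. Related listed factors were called higher: ATF1 (log2 fold change 0.40, adjusted p = 0.0125), CREM (0.50, 0.0108), CREB5 (1.61, 0.000154), ELK3 (0.51, 0.0190) and MKL1 (0.46, 0.00340). Their relatives ATF7, ELK4 and MKL2 were not called. The genes of the third list that fell were CRTC1, RPS6KA5 and MAP2K7, with log2 fold changes of −0.52, −0.54 and −0.28. RPS6KA5 lost its call without co-cultured replicate 1 (adjusted p = 0.078) or 2 (0.075), and MAP2K7 in 8 of 12 alternatives, among them DESeq2 (0.075), unstranded counts (0.086) and every removal of a library except control 1 (0.098 to 0.20). The count of 18 calls became 29 without control replicate 1, where the calls over all genes went from 6809 to 9897. Without either co-cultured library, the calls fell in this list and over all genes. HRAS and RPS6KA1 had 0 counts in every library, which, as for CHGA, does not show that they were silent, and MEF2C, also not tested, had 0 to 5. These values are mRNA levels and say nothing of kinase activity.

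The fourth list held 46 textbook AP-1 target genes. Only 29 passed the filter: 14 (48.3%) were higher, 3 (10.3%) were lower and 12 were not called, with a median log2 fold change of 0.48. Over all genes tested, 18.4% were higher and 15% lower. Genes low in control, such as LAMB3, could pass the filter through their co-cultured counts alone. Of the 22 targets with at least 10 counts in every library, 10 were higher and 3 lower. Leading genes were PHLDA1, also an immediate early gene, from 71.0 ± 12.7 to 202 ± 4.37 CPM (log2 fold change 1.51), PLAU, the urokinase plasminogen activator, from 2.34 ± 0.172 to 9.16 ± 0.589 CPM (1.97), LAMB3, a laminin chain, from 5, 0 and 1 to 75 and 54 counts (5.09), and CXCL8, the chemokine interleukin-8, from 68, 28 and 18 to 320 and 295 counts (3.19). MT2A, PLAUR, the receptor of PLAU, and ITGA2, named after their values were seen, fell by 0.69, 0.83 and 0.52 on the log2 scale. PLAUR lost its call in 4 of 12 alternatives (adjusted p = 0.057 without control replicate 3, 0.067 without control replicate 2 or co-cultured replicate 1, and 0.15 without co-cultured replicate 2). ITGA2 lost its call in 8, among them median-ratio normalization (adjusted p = 0.052), DESeq2 (0.081) and every removal of a library except control 1 (0.15 to 0.24). The matrix metalloproteinases of the list, MMP1, MMP2, MMP3, MMP7, MMP9, MMP10, MMP13 and MMP14, did not pass the filter and held 0 to 10 counts per library, and 11 genes of the list were at 3 counts or fewer in every library.

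**Figure D5:**
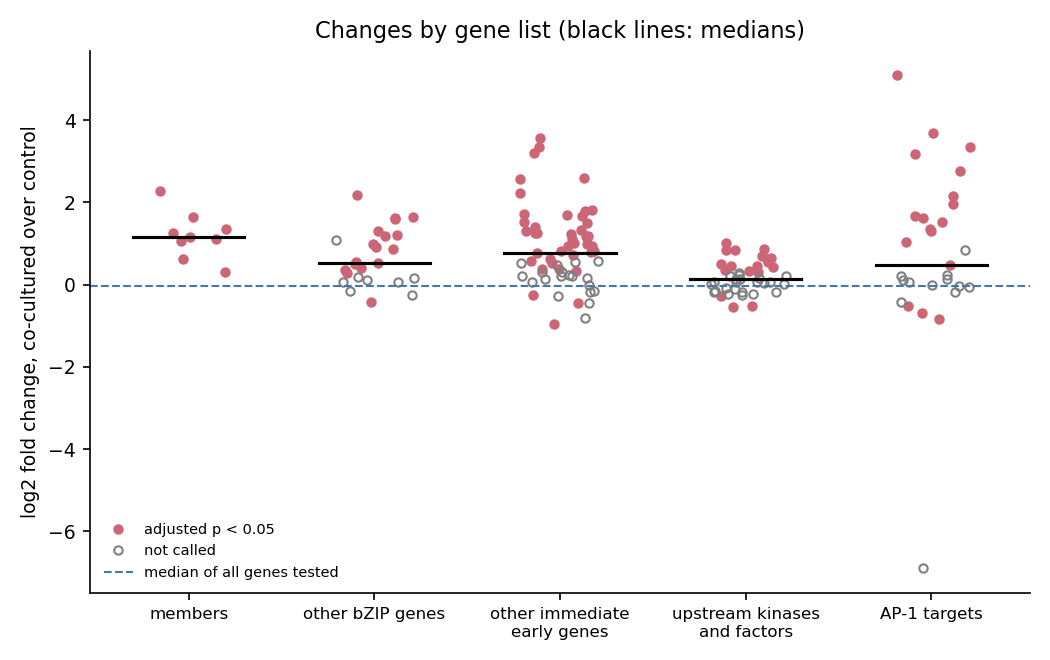
Log2 fold change, co-cultured over control, of the tested members and of the tested genes of 4 lists (filled points, adjusted p under 0.05; open points, not called; black lines, medians; dashed line, median of all genes tested at −0.03). Medians fall from 1.17 in the members to 0.13 in the upstream list, and the lowest open point is AXL, with 29, 17 and 0 counts in control and 0 in both co-cultured libraries.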

How the data were processed

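Total RNA of NCI-H209 cells was sequenced as directional libraries. The authors deposited raw counts of reads per gene, unnormalized, without regard to strand and for each strand, in the layout of STAR. Per the labels, CASAVA 1.8, STAR 2.6.1b and DESeq2 were used on GRCh38, and the gene identifiers matched GENCODE 29. The expected strand held 92.3% to 93.1% of reads on genes and its counts were used. The control libraries totalled 17317045 to 19157348 counts and the co-cultured libraries 18918787 and 15457071, or 30.7% to 33.6% of reads, and 3 counts equal 0.157 to 0.194 CPM. A deposited table of the authors' own comparison (mean values, fold changes and p-values) was used only to pair identifiers with names.

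Genes kept by filterByExpr were normalized by TMM and compared with the two-sided quasi-likelihood test of edgeR 4.0.16 in R 4.3.3, with Benjamini-Hochberg adjustment over all genes tested. Groups came from the labels. The 12 alternatives were 2 normalizations, DESeq2 1.42.0, 2 filters, unstranded counts, a replicate block and each of 5 libraries left out. SEs and 95% intervals come from the same fit, and the FOSL1 interval covers counting error only. TPM used union exon lengths. Promoter sequences were from RefSeq (GRCh38.p14). The steps were tested on simulated data. The members, lists and tests were chosen with earlier results of these data known. Named genes were all members and, per list, the 4 tested genes with the smallest p. The results of some of the listed genes are not reported here.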

Additional observations from a re-analysis of the deposited data

How the results depend on the processing

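All 9 tested members kept their direction under the 12 alternatives, and FOS, FOSL2, JUNB, JUND, ATF3 and BATF3 kept their calls in each. Over 36 named genes, 378 of 421 alternative values stayed on their side of the threshold or, for FOSL1, inside its counting interval. Another 42 lost their call, 1 (FOSL1 with unstranded counts) left that interval, and none changed direction. The genes beside the members were named by their p or their fall in these same data, so their kept calls are no independent support. Upper-quartile normalization moved the median log2 fold change of all genes from −0.03 to −0.11 and the split of calls from 3750 higher and 3059 lower to 3076 and 3929, with all 9 members still called higher. Over all genes, 1280 rather than 2128 met the criterion for DEGs when at least 10 counts were required in every library, which leaves fewer genes to test. With 1 library left out, 6 to 9 members were called (5 to 7 by the criterion for DEGs), 10 to 19 other bZIP genes, 30 to 45 immediate early genes, 9 to 29 upstream genes, 13 to 20 targets and 2734 to 9897 of all genes (1884 to 2476 by the criterion). The extremes for all genes were without co-cultured replicate 1 and without control replicate 1, and a lone co-cultured library was assumed to vary like the control group. Replicate numbers are shared by the labels of both groups, but same-numbered libraries did not deviate together (r = −0.114 and −0.067), so they were not taken as pairs. With the replicate block, in which control 3 stands alone, 4824 rather than 6809 genes and 8 of 9 members were called, and JUN was not (adjusted p = 0.15). At these depths FOSB and FOSL1 are limited by their 0 to 32 counts per library.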

Other observations

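Families inside the lists of immediate early genes are given here by all their listed members, and they were picked out after their values were seen. Of the DUSP phosphatases, which switch off MAP kinases, DUSP4 went from 26.1 ± 9.49 to 50.4 ± 3.52 CPM (log2 fold change 0.95, adjusted p = 0.0111, edgeR quasi-likelihood), DUSP6 from 1.42 ± 0.496 to 3.24 ± 0.559 CPM (1.18, adjusted p = 0.0193) and DUSP10 from 13.1 ± 1.65 to 23.1 ± 0.380 CPM (0.81, adjusted p = 0.00155). DUSP5 went from 3, 5 and 3 counts to 50 and 30 counts (3.56, adjusted p = 0.000310). Its control counts were near the floor, and it passed the filter through the co-cultured libraries alone. DUSP1 and DUSP2 were not called, with 95% intervals of −0.22 to 0.62 and −0.97 to 0.09, and DUSP8 had 0 counts in every library, which does not by itself show a lack of mRNA, because reads that map to several places are not counted. Of the NR4A orphan receptors, NR4A3 was higher, with 9, 3 and 14 counts against 25 and 26 (1.73, adjusted p = 0.0221), whereas the intervals of NR4A1 (−0.11 to 0.74) and NR4A2 (−0.04 to 0.99) included 0. Whether members of a family differed from each other was not tested.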
